A study of Mus musculus with 6 samples.

Results

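A set of 10 immediate-early and AP-1 genes was followed in mouse cornea: Fos, Fosb, Jun, Junb, Jund, Egr1, Atf3, Ier2, Ier3 and Klf2. They were taken by symbol, and all 10 were found among the 22007 gene symbols of each library. The corneas came from male C57BL/6J mice. The group named OFBI had an open-field blast injury, a single detonation of 350 g of the explosive C-4 at 3 m from awake animals, with corneas taken 12 months later. The Naive group carried the same 12-month label and no blast. Each group had 3 libraries, each from pooled corneas, so the spread is between pools and not between single mice. The sources used here give neither the age at the blast nor the time from death to tissue lysis.

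Immediate-early genes are transcribed within minutes of a stimulus, without new protein synthesis, through kinase cascades that act on factors already bound to their promoters. Proteins of the Fos and Jun families join as dimers to form AP-1, a transcription factor that binds its own class of DNA sites, and their RNAs are mostly short-lived. In the corneal epithelium AP-1 is known for its part in wound responses and in stratified-epithelial gene expression. The same genes are also known to be induced by tissue handling and dissection.

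The libraries differed in depth with the groups, with 41971752 to 47809779 estimated counts in the Naive libraries and 1173472 to 3410476 in the OFBI libraries, of which OFBI replicate 3 was the shallowest. A Naive library was on average 16.7 times as deep. Of 16 genes that define corneal epithelium, stroma and endothelium, all were tested and none was at 0 in all 3 OFBI libraries, though Kera, a stromal proteoglycan, had 0, 20 and 0 counts in OFBI replicates 1, 2 and 3. Their summed level was 31226 to 32555 CPM (counts scaled to a library of 1e+06) in Naive and 61522 to 80234 CPM in OFBI. The sum does not stand for all 16, whose median log2 fold change, OFBI over Naive, was -0.09. At an edgeR adjusted p below 0.05, 4 keratins (Krt12, Krt5, Krt14 and Krt15) were called higher and 2 genes, Dcn and Slc4a11, lower. OFBI libraries also held more of the GC-rich transcripts. The count-weighted GC content was 50.9% to 51.0% in Naive and 51.9% to 52.4% in OFBI libraries. The median log2 fold change of all tested genes, OFBI over Naive, went from -0.58 at the lowest GC content to 0.48 at the highest, in 10 bins of equal size. Fold changes are therefore given in both ways, after TMM scaling and after a GC and length trend was also removed from each library. With the trend removed the medians were -0.09 in the lowest bin and -0.30 in the highest, a smaller slope of opposite sign. Jund, Klf2, Ier2 and Junb lie in that highest bin.

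Across the 10 genes the groups parted in both directions. Jund, Ier2 and Klf2 were called higher after OFBI, Ier3 and Atf3 were called lower, and Fos, Fosb, Jun, Junb and Egr1 did not pass (edgeR quasi-likelihood test, adjusted p below 0.05 over 13941 genes). Thus 5 of 10 were called, where 18.8% of all tested genes were, 8.41% higher and 10.4% lower. The libraries of the groups did not overlap for 9 of the 10, with OFBI above Naive for Fosb, Junb, Jund, Ier2 and Klf2 and below it for Fos, Jun, Atf3 and Ier3. The share of all tested genes without overlap was 46.4%, with 16.4% above and 29.9% below. The median log2 fold change was 0.17 over the 10 genes and -0.20 over all tested genes. With the GC and length trend removed, Klf2 alone was called higher and Jun, Junb, Ier3 and Atf3 were called lower, against 6.03% and 8.18% of all genes, or 14.2% in either direction. The medians were then -0.55 and -0.19.

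**Figure D1:**
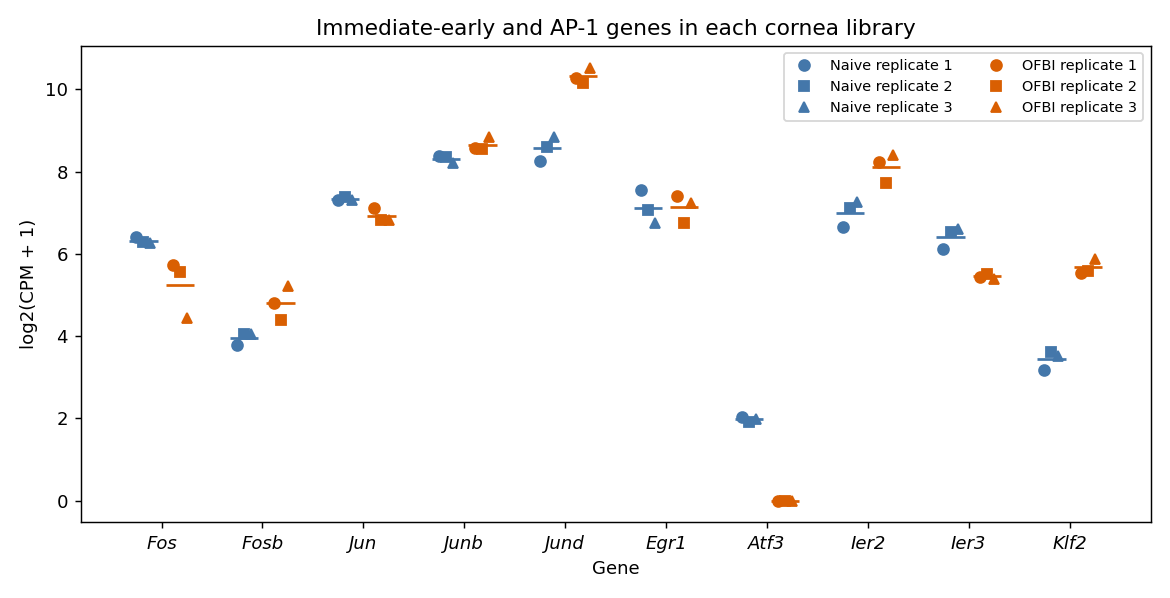
Level of each of the 10 genes in each library as log2(CPM + 1), with blue for Naive, orange for OFBI, a marker shape per replicate and a bar at the mean of 3. Jund, Ier2 and Klf2 stand higher in all OFBI libraries, Ier3 and Atf3 lower, and Egr1 overlaps.

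The promoters of Klf2, Ier3 and Fos are shown because Klf2 and Ier3 kept their calls with the GC and length trend removed, in opposite directions, and because Fos is the model gene of this class. Each is the 250 bases before the RefSeq start on GRCm38.p6. Capitals mark matches on either strand to TGACG, the core of the cAMP response element, to GGGCGG, the GC box, or to TATAAA, the TATA box.
Klf2, chr8:72318812-72319061, plus strand: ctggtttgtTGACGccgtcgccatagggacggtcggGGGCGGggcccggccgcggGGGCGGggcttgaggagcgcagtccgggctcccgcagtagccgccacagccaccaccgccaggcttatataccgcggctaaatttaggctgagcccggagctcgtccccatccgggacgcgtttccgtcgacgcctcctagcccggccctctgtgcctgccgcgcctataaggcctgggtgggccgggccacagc
Ier3, chr17:35821463-35821712, plus strand: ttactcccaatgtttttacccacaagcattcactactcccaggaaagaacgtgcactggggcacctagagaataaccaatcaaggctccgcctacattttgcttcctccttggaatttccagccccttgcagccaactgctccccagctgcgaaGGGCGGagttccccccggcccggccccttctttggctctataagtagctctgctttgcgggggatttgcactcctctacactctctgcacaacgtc
Fos, chr12:85473640-85473889, plus strand: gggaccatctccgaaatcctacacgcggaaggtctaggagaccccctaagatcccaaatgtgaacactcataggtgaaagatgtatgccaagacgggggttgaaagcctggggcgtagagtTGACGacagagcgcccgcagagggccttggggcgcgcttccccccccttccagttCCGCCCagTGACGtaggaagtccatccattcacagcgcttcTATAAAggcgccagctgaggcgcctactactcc
The Fos window held TGACG 129 and 66 bases before the start, a GC box at 74 and a TATA box at 33. Klf2 held TGACG once, at 241, and GC boxes at 214 and 195, and Ier3 held a single GC box at 96. Over 32851 promoter windows of the same length, TGACG was found in 17.8%, the GC box in 32.7% and the TATA box in 12.4%. The serum response CArG box, in 1.47% of windows, and the AP-1 site TGANTCA, in 6.75%, had no match in the 3 windows. Bases further upstream than 250 were not searched, so this absence holds for the windows only. The windows were 71.2% GC for Klf2, 58.4% for Fos and 54.4% for Ier3.

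Among the Fos genes, Fos was lower and Fosb higher in every OFBI library, and neither passed the test. Fos encodes the partner that cannot pair with itself and joins a Jun protein. Fos (chromosome 12, 85473890 to 85477273, GRCm38, 4 exons) was at 84.1, 76.8 and 75.9 CPM in Naive replicates 1, 2 and 3 and at 52.2, 45.8 and 20.6 CPM in OFBI replicates 1, 2 and 3. The lowest value belonged to OFBI replicate 3, where it rested on 22 estimated counts. By edgeR the log2 fold change of Fos was -0.96 (SE 0.31), with an adjusted p of 0.0736. Removing the GC and length trend left -0.89 (SE 0.29, adjusted p = 0.0816). Without OFBI replicate 3 it was -0.70 and called lower (edgeR adjusted p = 0.0184). That fit called 1611 genes higher and 2065 lower of 14911. Of 14 alternatives that kept every library, 3 called Fos lower. These were DESeq2, which called 26.4% of all genes (adjusted p = 0.0179), and edgeR with counts divided by 4 or with library size only (adjusted p = 0.0306 and 0.0432).

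Fosb, a Fos relative with short splice forms that lack part of the activating region, was at 12.8, 15.5 and 15.7 CPM in Naive and 27.2, 20.2 and 36.5 CPM in OFBI replicates 1, 2 and 3. All OFBI values lay above all Naive values, on 39 to 88 estimated counts in the OFBI libraries. The edgeR log2 fold change of Fosb was 0.91 (SE 0.31), with an adjusted p of 0.0862, and 0.47 (SE 0.27, adjusted p = 0.294) with the trend removed. Without OFBI replicate 2 it was 1.05 and called higher (edgeR adjusted p = 0.0426). That fit called 1367 genes higher and 1713 lower of 14922. DESeq2 with all libraries also called Fosb higher (adjusted p = 0.0165).

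Among the Jun genes, which encode the proteins that pair with Fos or with each other, Jund was the gene called higher. Jund (chromosome 8, 70698949 to 70700616) is a single-exon gene whose product is known for a steadier level than its relatives. It was at 308, 386 and 457 CPM in Naive and at 1243, 1145 and 1480 CPM in OFBI replicates 1, 2 and 3. The lowest OFBI library was above the highest Naive library by more than the spread within either group. The means were 384 ± 74.3 and 1289 ± 172 CPM (SD, n = 3 each), a ratio of 3.36. By edgeR this was 1.75 on the log2 scale (SE 0.19), with an adjusted p of 0.00666. With the GC and length trend removed it was 0.13 (SE 0.27, adjusted p = 0.799).

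Jund was among the most GC-rich transcripts measured, at 67.1% GC. Only 32 tested genes were at or above that content, Jund among them, and their median log2 fold change was 1.58, with 40.6% of them called higher. Few genes lie there, since the 99th percentile of GC content among tested genes was 63.3%. The trend runs on as a straight line beyond the 99th percentile of the genes it was fitted to. Jund lay beyond that point, so the trend removed from it follows that line. With a GC trend alone removed the log2 fold change of Jund was 0.09, and with a length trend alone 1.68. In the annotation 877 of its 1668 exonic bases also belong to Gm11175 on the other strand. The strand setting of the counting is not given, so reads of the pair may not have been told apart.

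Junb, an early-induced Jun gene that can restrain c-Jun, was at 333, 326 and 296 CPM in Naive and 381, 371 and 459 CPM in OFBI replicates 1, 2 and 3. The groups did not overlap, at 0.34 on the log2 scale (SE 0.14) and an edgeR adjusted p of 0.132, but with the GC and length trend removed the direction turned to -0.71 (SE 0.17, adjusted p = 0.0407). Junb is 62.6% GC, and 173 of its exonic bases overlap Prdx2 on the other strand. Jun, which encodes c-Jun, was at 159, 165 and 158 CPM in Naive and 137, 112 and 113 CPM in OFBI replicates 1, 2 and 3. All OFBI values were the lower ones, at -0.41 on the log2 scale (SE 0.14) and an edgeR adjusted p of 0.0895. With the trend removed Jun was called lower, at -0.63 (SE 0.13, adjusted p = 0.032). Jun shares 232 exonic bases with Junos on the other strand.

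**Figure D2:**
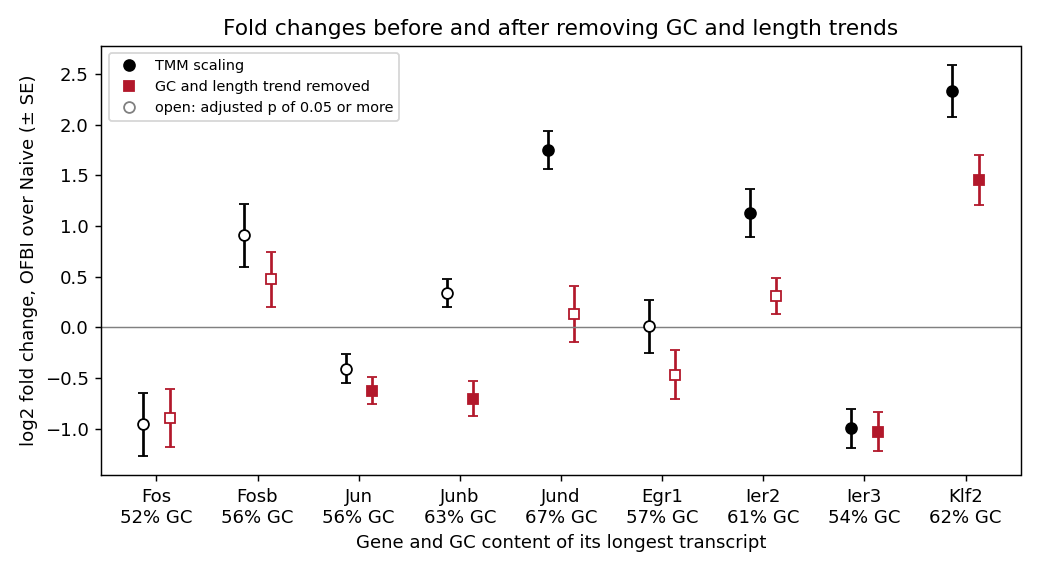
Log2 fold change of 9 genes, OFBI over Naive, with bars of 1 SE, after TMM scaling (black circles) and with GC and length trends also removed (red squares), open where not called. Jund moves from 1.75 to 0.13, Ier2 from 1.13 to 0.31 and Junb from 0.34 to -0.71, while Fos and Ier3 move by less than 0.1. Atf3 is left out since it had no counts in OFBI.

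The make-up of the 5 Fos and Jun genes also differed. On a scale of counts per kilobase of exon, Jund was 44.3%, 50.3% and 56.2% of their sum in Naive replicates 1, 2 and 3 and 76.0%, 75.8% and 78.0% in the OFBI replicates. The mean share was 50.3% ± 5.97 in Naive and 76.6% ± 1.24 in OFBI (SD, n = 3 each). The shares of a library add up to the whole, so a larger Jund share leaves less for the others. Every other share was smaller on average in OFBI. The CPM of Junb and Fosb was nevertheless higher in every OFBI library than in any Naive library. Junb was at 30.7% ± 4.15 and 17.4% ± 0.47, Jun at 11.1% ± 0.87 and 3.79% ± 0.63, Fos at 7.43% ± 1.02 and 1.73% ± 0.83, and Fosb at 0.516% ± 0.023 and 0.438% ± 0.079 (SD, n = 3 each). With the GC and length trend removed from the counts, the Jund share was 58.4% ± 5.52 in Naive and 70.7% ± 4.57 in OFBI (SD, n = 3 each), and its range of 65.5% to 74.1% in OFBI lay just above that of 53.0% to 64.1% in Naive. The Fosb share then turned higher in OFBI, 0.672% against 0.388%.

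**Figure D3:**
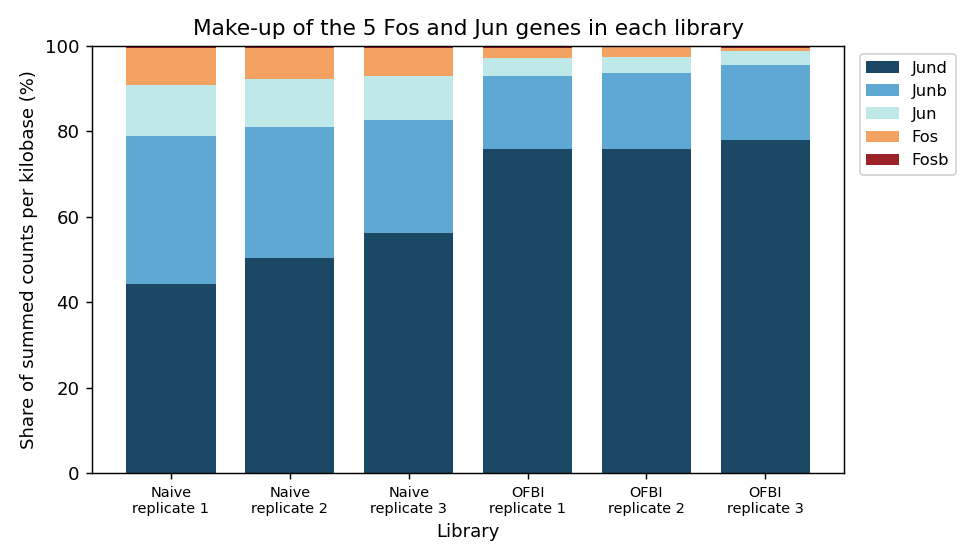
Share of Jund, Junb, Jun, Fos and Fosb in their summed counts per kilobase, in percent, 1 stacked bar per library. Jund takes 44.3% to 56.2% of each Naive bar and 75.8% to 78.0% of each OFBI bar.

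Among the other factors, Klf2 had the highest ratio of the 10 genes and the Egr1 groups overlapped. Klf2 encodes a zinc-finger factor known for quiescence in endothelium and T cells. Klf2 (chromosome 8, 72319033 to 72321656) was at 8.10, 11.3 and 10.5 CPM in Naive and 45.8, 47.4 and 58.0 CPM in OFBI replicates 1, 2 and 3. The groups were far apart, at 9.95 ± 1.65 and 50.4 ± 6.64 CPM (SD, n = 3 each), a ratio of 5.06. On the log2 scale this was 2.33 (SE 0.25), with an edgeR adjusted p of 0.00666. With the trend removed it was 1.45 (SE 0.25, adjusted p = 0.0223), still called higher, for a transcript of 61.6% GC.

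Markers of lymphocytes, endothelium, hepatocytes, muscle and macrophages were read beside Klf2, and their part in the result was not tested. Whether each of these cell types expresses Klf2 was not tested either. In bulk RNA, more cells of a type and more RNA per cell cannot be told apart. Of 16 lymphocyte markers 11 were tested and 8 were called higher, with a summed level of 11.2 to 13.5 CPM in Naive and 48.3 to 322 CPM in OFBI. The B cell markers Cd79a and Ms4a1 were at 0 in every OFBI library and at no more than 5 counts in any Naive library, and Cd79b, at 0 to 5 counts in OFBI, did not pass, so these counts were too low to show a difference. Of 14 endothelial markers Flt1 was called higher and Tek and Robo4, at 0 in OFBI, lower. Tek was at 1.38 CPM in Naive, under the 1.62 CPM that 12 counts over the OFBI libraries would give, so a difference could not be seen at this depth, and Robo4 was at least 1.04-fold lower. Their sum was 73.4 to 79.4 CPM in Naive and 112 to 1377 CPM in OFBI, where 1322 CPM of the highest sum was Erg in OFBI replicate 3. The sum of 18 hepatocyte markers, 31.1 to 42.9 CPM in Naive, was 160 to 1198 CPM in OFBI, with 6 of 7 tested called higher. Of 14 muscle markers 5 were called higher and 1 lower, with sums of 166 to 179 and 154 to 346 CPM. Of 12 macrophage markers 10 were tested and the C1q chains C1qa, C1qb and C1qc were called higher, with sums of 230 to 256 and 183 to 263 CPM. With the GC and length trend removed none of these 3 calls held, at edgeR adjusted p = 0.0792, 0.0758 and 0.0703. Aif1 and Cd163 were at 0 in every OFBI library, with Naive levels under the same 1.62 CPM.

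Egr1, a zinc-finger factor of the early growth response, was at 186, 132 and 106 CPM in Naive and 170, 107 and 150 CPM in OFBI replicates 1, 2 and 3. The groups overlapped and the spread within each exceeded the difference of their means, 141 ± 40.5 and 142 ± 32.0 CPM (SD, n = 3 each). The edgeR log2 fold change was 0.01 (SE 0.26), with an adjusted p of 0.986, and -0.47 (SE 0.24, adjusted p = 0.244) with the trend removed, and its sign changed with the scaling. Atf3, a stress-induced repressor of the ATF family, had 155, 128 and 135 estimated counts in Naive replicates 1, 2 and 3, or 2.76 to 3.06 CPM, and 0 in every OFBI library. Taking 12 counts over the summed OFBI libraries as the least that could be seen, it was at least 1.81-fold lower in OFBI (edgeR adjusted p = 0.0232). Of all tested genes 5.32% were likewise called lower and at 0 in every OFBI library. Atf3 was also called with the trend removed (adjusted p = 0.0304). With the Naive libraries thinned to the OFBI depth it no longer entered the test, and with a replicate block it did not pass (adjusted p = 0.215).

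The IER genes encode short early-response proteins and went in opposite directions. Ier2, a single-exon gene on chromosome 8 (84661331 to 84662852), was at 99.2, 137 and 152 CPM in Naive and 300.2, 209 and 340 CPM in OFBI replicates 1, 2 and 3. All OFBI libraries were above all Naive libraries, with means of 129 ± 27.1 and 283 ± 67.3 CPM (SD, n = 3 each). The edgeR value of 1.13 on the log2 scale (SE 0.24), with an adjusted p of 0.0245, went to 0.31 (SE 0.18, adjusted p = 0.293) with the trend removed, and the transcript is 60.9% GC. Ier3, an early gene known for control of cell survival (chromosome 17, 35821684 to 35822923), was at 68.9, 91.0 and 96.7 CPM in Naive and 42.4, 44.8 and 41.2 CPM in OFBI replicates 1, 2 and 3. The OFBI libraries were close to each other and below all Naive libraries. Ier3 fell by 1.0 on the log2 scale (SE 0.19, edgeR adjusted p = 0.02), and by 1.03 (SE 0.19, adjusted p = 0.0275) with the trend removed, at 54.4% GC. It did not pass by limma-voom (adjusted p = 0.106) or with a replicate block (edgeR adjusted p = 0.0653).

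**Figure D4:**
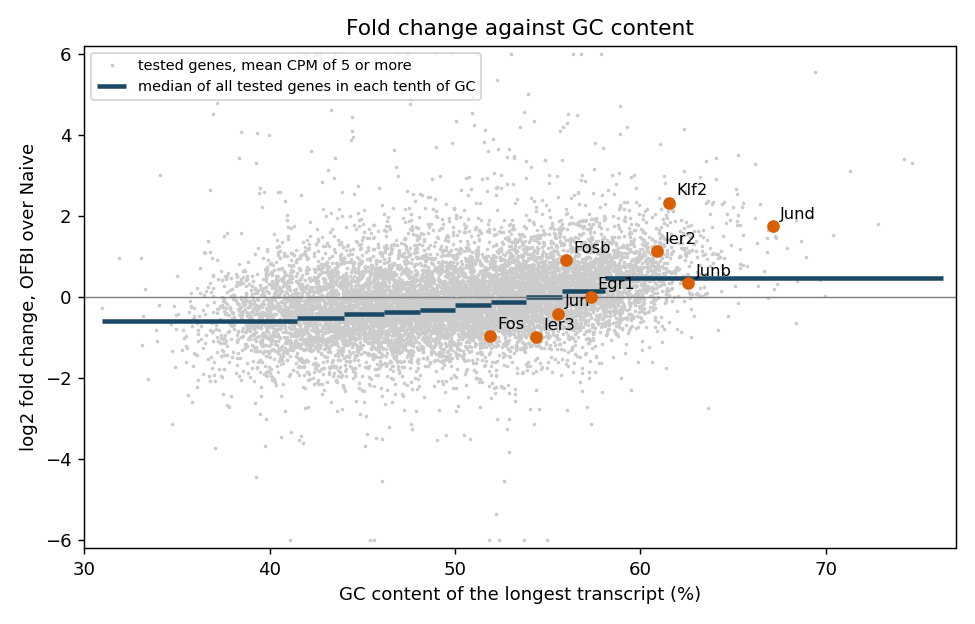
Log2 fold change, OFBI over Naive, against the GC content of the longest transcript for tested genes that averaged 5 CPM or more (grey, drawn at the edge beyond 6), with the median of each of 10 GC bins over all tested genes (blue lines) and 9 of the 10 genes (orange). Medians go from -0.58 to 0.48, and Jund, Klf2, Ier2 and Junb lie in the highest bin.

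Across genes that averaged 5 CPM or more, the correlation of the log2 fold change with GC content was 0.30 (Pearson) and 0.36 (Spearman) over 10527 genes, which share the same 6 libraries and are no independent replicates. With the GC and length trend removed the Pearson value was -0.07. Klf2, Jund, Ier2 and Junb all lay above the 96th percentile of GC content among tested genes, and Fos and Atf3 near the 60th. Levels between genes were compared per kilobase of exon. Jund ranked first and Atf3 last of the 10 in all 6 libraries, and Fosb was ninth in all 6. In Naive the means ran from Jund at 230.0 CPM per kilobase through Junb at 138, Ier2 at 85.0, Ier3 at 75.6, Jun at 50.4, Fos at 33.6, Egr1 at 31.5 and Klf2 at 5.39 to Fosb at 2.35 and Atf3 at 1.36. Ier2 and Ier3, and Fos and Egr1, did not differ beyond their spread there, though Ier2 was above Ier3 within every Naive library. In OFBI they ran from Jund at 773, Ier2 at 186, Junb at 176, Jun at 37.9, Ier3 at 37.8, Egr1 at 31.7, Klf2 at 27.3 and Fos at 16.8 to Fosb at 4.48. There the libraries of Ier2 and Junb, of Jun and Ier3, of Ier3 and Egr1 and of Egr1 and Klf2 overlapped.

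The rest of the pathway was read from 5 lists of related genes. Of their 115 tested genes, 14 were called higher and 12 lower, near the shares of 8.41% and 10.4% of all genes. Of 12 tested AP-1 and bZIP partners, 3 were called higher, Fosl2 and Maf among them, and Atf7 lower, with a median log2 fold change of 0.61. Fosl2, which encodes Fra-2, was at 1225 ± 37.5 CPM in Naive and 1944 ± 197 CPM in OFBI (SD, n = 3 each). Fosl2 rose by 0.67 on the log2 scale (edgeR adjusted p = 0.0184), and stood at 0.39 with the trend removed, where it did not pass (adjusted p = 0.109). Atf7, a partner of c-Jun, was called lower by both scalings, at -1.58 (adjusted p = 0.00934) and -1.53 (adjusted p = 0.0191). Jdp2, a repressor that binds Jun proteins, had a log2 fold change of -0.53 and did not pass (adjusted p = 0.185).

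Of 24 other immediate-early factors tested, Ier5, Ier5l and Cebpb were called higher, Bhlhe40 and Hes1 lower, and 19 did not pass. Cebpb turned from 1.63 to -0.07 with the trend removed (edgeR adjusted p = 0.884), while Hes1 kept its call. Ier5, a relative of Ier2 that acts with heat shock factor 1, was at 248, 332 and 413 CPM in Naive and 1262, 988 and 2135 CPM in OFBI replicates 1, 2 and 3. Ier5 rose by 2.14 on the log2 scale (SE 0.33), with an edgeR adjusted p of 0.0122, and by 2.20 (adjusted p = 0.0208) with the trend removed, for a transcript of 52.3% GC. Ier5l, at 63.8% GC, had a log2 fold change of 2.29 (edgeR adjusted p = 0.0155), and one of 1.00 with the trend removed (adjusted p = 0.062). Klf4, an epithelial zinc-finger factor, was at 1263 ± 360 CPM in Naive and 1252 ± 198 CPM in OFBI (SD, n = 3 each), with overlapping groups. Bhlhe40, a repressor that responds to stress, had a log2 fold change of -0.54 (edgeR adjusted p = 0.0247), and -0.41 with the trend removed (adjusted p = 0.0824).

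Among 38 early-response signalling and feedback genes, Dusp2, Dusp4, Zfp36l1, Zfp36l2 and Phlda1 were called higher and Sgk1, Plk2, Tiparp, Hbegf and Ptgs2 lower. With the trend removed Dusp2 and Dusp4 lost their calls (edgeR adjusted p = 0.0508 and 0.0717). Ptgs2 was at 0 in OFBI with a Naive level under what 12 counts over the OFBI libraries would give, so that difference was not detectable at this depth. Zfp36l2, which encodes an RNA-binding protein that speeds the decay of AU-rich messages, was at 283, 296 and 281 CPM in Naive and 828, 805 and 965 CPM in OFBI replicates 1, 2 and 3. Zfp36l2 rose by 1.59 on the log2 scale (SE 0.13), with an edgeR adjusted p of 0.0053, and by 1.43 with the trend removed (adjusted p = 0.0154). Tiparp, an ADP-ribosyltransferase, was called lower at -1.71 (edgeR adjusted p = 0.0094), and at -1.15 with the trend removed (adjusted p = 0.02). Phlda1 had a log2 fold change of 0.92 (edgeR adjusted p = 0.0111), and 0.36 with the trend removed (adjusted p = 0.171). Rhob, a small GTPase, was at 415 ± 17.3 and 479 ± 56.0 CPM (SD, n = 3 each) and did not pass (adjusted p = 0.322).

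Of 31 upstream kinases and SRF or CREB factors, 2 were called higher and 2 lower. The kinases above JNK, which phosphorylates c-Jun, parted. Map2k4 was at 84.1 ± 1.17 CPM in Naive and 21.1 ± 7.06 CPM in OFBI (SD, n = 3 each), a log2 fold change of -1.96 (edgeR adjusted p = 0.00934), and Map2k7 at 23.1 ± 1.53 and 62.5 ± 13.5 CPM (SD, n = 3 each), one of 1.42 (edgeR adjusted p = 0.0133). Both kept their calls with the trend removed, at -1.63 and 1.14 (adjusted p = 0.0163 and 0.0295). The others called were Map2k2, higher, at 0.94, and Mkl2, lower, at -1.39. With the trend removed Map2k2 was at 0.02 and not called (edgeR adjusted p = 0.935). Mkl2 stayed called, but it had no GC or length value, so no trend was removed from it. Mapk3, the kinase ERK1, had a log2 fold change of -0.44 (edgeR adjusted p = 0.0544), and -0.83 with the trend removed, where it was called lower (adjusted p = 0.0234). Mapkapk2 and Map2k1 did not pass, at 0.47 and 0.22 (adjusted p = 0.0772 and 0.526).

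Heat shock genes, which tissue handling can also induce, gave 1 called higher and 2 lower of 12, with a median log2 fold change of -0.08. Hspa1a was at 353 ± 49.8 CPM in Naive and 522 ± 18.9 CPM in OFBI (SD, n = 3 each), a log2 fold change of 0.56 (edgeR adjusted p = 0.0372), and -0.01 with the trend removed (adjusted p = 0.978). Its near-identical copy Hspa1b had a log2 fold change of 0.00 (adjusted p = 0.985), and counts may be split between them. Dnajb1, their co-chaperone, was called lower, at -1.10 (adjusted p = 0.0359), and at -1.12 with the trend removed (adjusted p = 0.0339). Hsp90aa1 was called lower by TMM scaling, at -0.59 (adjusted p = 0.048), and not with the trend removed, at -0.11 (edgeR adjusted p = 0.766). Hspb1, a small heat shock protein, spread from library to library in OFBI, at 680 ± 438 CPM against 728 ± 111 CPM in Naive (SD, n = 3 each), did not pass by TMM scaling, and was called lower with the trend removed, at -1.15 (edgeR adjusted p = 0.0291).

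**Figure D5:**
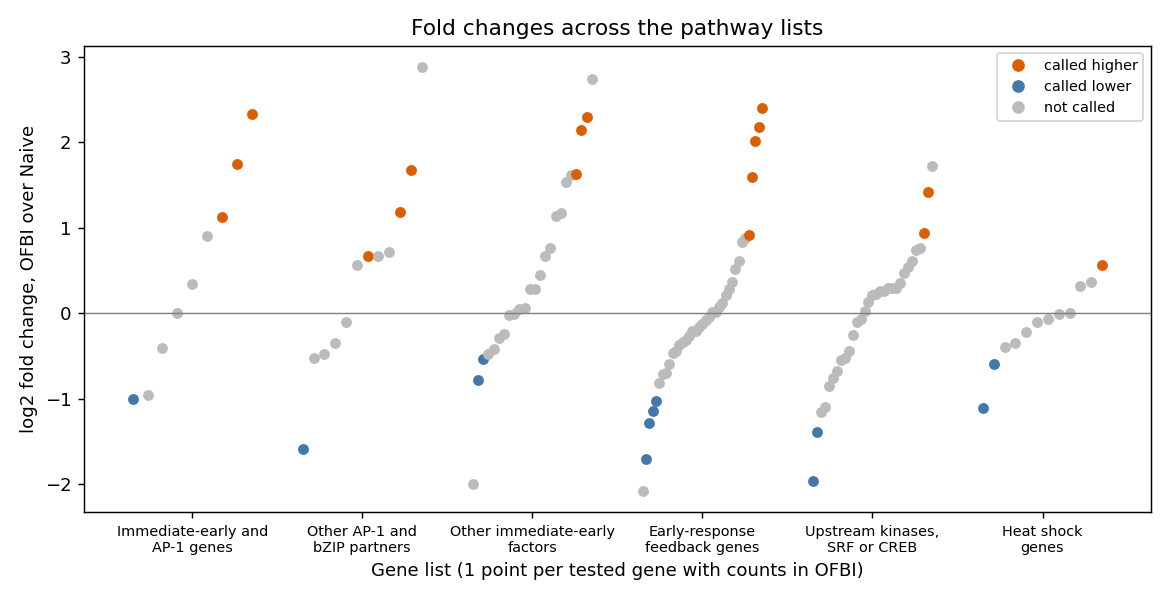
Log2 fold change, OFBI over Naive, of each tested gene with OFBI counts in 6 lists, ordered within each list, with orange for called higher, blue for called lower and grey for not called. Calls lie on both sides in each list, with 14 higher and 11 lower drawn over the 5 wider lists; Ptgs2 and Atf3, at 0 in OFBI, are not drawn.

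The calls depended on the Naive libraries, those of edgeR most. Without Naive replicate 1, 2 or 3, edgeR called 106, 0 and 104 genes of any kind, and 2611, 2441 and 2615 had an unadjusted p below 0.05. Jund and Klf2 were called without Naive replicate 1 or 3, and none of the 10 genes without Naive replicate 2, where 6 had an unadjusted p below 0.05 and the adjusted p of Jund and of Klf2 was 0.0561. DESeq2 without Naive replicate 2 called Jund, Klf2, Ier2 and Ier3, and limma-voom called 3 of the 10 genes higher and 1 lower. Of all genes, DESeq2 then called 1010 higher and 479 lower, and limma-voom 1037 higher and 529 lower. Without OFBI replicate 3, the shallowest library, edgeR called Jund, Ier2 and Klf2 higher, at 1.63, 0.97 and 2.22, and Fos, Ier3 and Atf3 lower. Of 14911 genes tested, 1611 were then called higher and 2065 lower. Without OFBI replicate 1 Ier2 did not pass (adjusted p = 0.0598).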

How the data were processed

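The authors deposited 1 table of estimated counts per gene for each library, not scaled for depth, a unit read from the values. Per the submitters' processing notes, FastQC, HISAT2, StringTie, DESeq2 and GRCm38 were used, with no version, role or order. Per the labels' protocols, RNA came from RNeasy columns and a stranded KAPA kit. Multiples of 4 made up 39.4% to 50.5% of values from 1 to 40, so about 4 counts may stand for 1 fragment, an inference from the values; 12 counts (3 fragments) over the summed OFBI libraries served as the floor, 1.62 CPM, for counting error only. All 6 libraries carry batch number 4. Of 22040 rows, 64 shared 31 symbols and were summed; 26 date-like names were kept apart.

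edgeR 4.0.16 (R 4.3.3) was run with filterByExpr, TMM, a quasi-likelihood fit on group, two-sided, and Benjamini-Hochberg adjustment over all tested genes at 0.05. The SE is the size of the log2 fold change over the square root of F. For the trend, a spline (4 degrees of freedom each) of each gene's log2 CPM, less its mean over libraries, on GC content and log2 exon length, over genes averaging 5 CPM or more, entered as offsets; 13806 of 13941 tested genes had GENCODE M21 values, by symbol. Alternatives were DESeq2 1.42.0, limma-voom (limma 3.58.1), other scalings and filters, thinning, counts divided by 4, a replicate block and leaving out each library. GC and length trends taken singly, and the trend in the shares, were added after the data were seen. No pair of libraries agreed within sampling noise. The code was tested on simulated data. Nothing in the labels says that equal replicate numbers share a mouse or day.

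The genes and lists were chosen with earlier results of these data known. Named genes are the 10 and some of each of 5 pathway lists. In each list these are the 3 tested genes with the highest level per kilobase and the 2 with the smallest p. Others are listed by name and direction, with values added for some, mainly where a call changed with the trend removed. A named gene and a marker are not reported here. Promoters are RefSeq's, matched by symbol, for 8 of the 10 genes; the authors' annotation release is not given.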

Additional observations from a re-analysis of the deposited data

How the results depend on the processing

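Klf2 was called higher under all 14 alternatives that kept every library, with a log2 fold change of 1.38 to 2.44, and Jund and Ier2 under all but those that removed a GC trend. Under GC and length trend removal 1 of the 10 genes was higher and 4 lower, as with a GC trend alone, and of the pathway genes 8 were called higher both times. Junb then reversed to -0.71 and -0.75. Egr1 was never called and took the values -0.19 with library size only, -0.0095 without a filter, -0.0042 with limma-voom, -0.038 with all libraries thinned, and -0.47 and -0.46 with the trends removed. Lower among the 10 were 4 with library size only, 4 with DESeq2, 1 with limma-voom and 1 with either thinning. Over all 13941 tested genes, 2038, 1821 and 1248 were lower with library size only, DESeq2 and limma-voom. Either thinning tested 9 of the 10 genes, among 11704 genes with the Naive libraries thinned and 9700 with all thinned. Pathway genes called lower were 20 with library size only, 19 with DESeq2 and 7 with all libraries thinned. Of all genes, 1854 were higher with DESeq2, and 910 were lower without a filter, 562 with the Naive libraries thinned and 425 with all thinned.

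With a replicate block, 540 genes were higher and 253 lower, 9 pathway genes higher, and 0 of the 10 genes lower. Jund, Ier2 and Klf2 were still called higher. Same-numbered libraries did not deviate together over all genes (r of -0.02 to 0.01). With 3 libraries per group and shallow OFBI libraries, this cannot exclude a pairing. By edgeR, leaving out 1 library gave 0 to 4 of the 10 higher and 0 to 3 lower. In these edgeR fits 0 to 1611 genes were higher and 0 to 2065 lower. Pathway genes were 0 to 19 higher and 0 to 18 lower, and the Egr1 value was -0.18 to 0.29. The share of Jund in OFBI minus Naive was 12.3 points with the trend removed, that of Junb -8.70, Jun -1.88, Fos -2.01 and Fosb 0.28, against 26.3, -13.2, -7.32, -5.71 and -0.08. The share of Jun was -6.54 points by the longest transcript and -10.4 without division by length. The cause of these moves was not tested. The OFBI depth limits what can be seen of Atf3.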
